A study of Mus musculus with 6 samples.

Results

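The insulin-like growth factor (IGF) system was followed in colon tumors of double knockout and Apc knockout mice through 10 genes, the ligands Igf1 and Igf2, the receptors Igf1r and Igf2r, and the binding proteins Igfbp2, Igfbp3, Igfbp4, Igfbp5, Igfbp6 and Igfbp7. The members were taken by gene symbol from the platform annotation of the array, with the probe set of the highest mean signal for each gene. The array held a single-symbol probe set for 19938 genes. All 10 members had exactly 1 probe set that carried a single symbol, and all 10 were among the 19506 probe sets tested, of 35556 on the array. The double knockout mice were CDX2P-G19Cre;Apcflox/flox;Tgfbr2flox/flox (3 tumors), and the Apc knockout mice were CDX2P-G19Cre;Apcflox/flox (3 tumors). Both groups were C57BL/6J mice of 3 weeks of age, both carried the Apc deletion, and they differed by the Tgfbr2 alleles, so the comparison addressed what loss of the type II receptor for TGF-β adds to loss of Apc. Cre was under the control of a CDX2 promoter and became active stochastically in colon epithelium after a frameshift in a guanine tract, so the other cell types of a tumor were not its target. Cancer tissue was laser-dissected from frozen sections, and 1 array was run for each tumor. Each tumor carries a number of its own in the labels, which do not say that it names the mouse, and the p-values measure only the spread between these samples.

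Igf1 and Igf2 are small secreted growth factors that bind the receptor tyrosine kinase Igf1r and drive cell growth and survival through the insulin receptor substrates, phosphoinositide 3-kinase and the MAP kinases. Igf2r takes up Igf2 and delivers it to lysosomes, so it lowers the amount of ligand without signaling growth. The Igfbp proteins hold the ligands in the tissue and in blood, and proteases that cut the Igfbp proteins set the ligands free. In human colorectal cancer, overexpression and loss of imprinting of IGF2 are well known.

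Sequence at the start sites was taken for the members whose groups did not overlap (Igf2, Igf1r and Igfbp3, described in the following paragraphs), because their 3 double knockout values all lay below their 3 Apc knockout values. The windows are 300 bases long around an annotated start, most of them upstream of it (RefSeq, build GRCm38.p6), are written 5′ to 3′ on the strand of the gene, and carry the GC box GGGCGG or its reverse complement CCGCCC in capitals. Igf2 has 4 such windows, and the 2 with a GC box are shown.
Igf2, chr7:142657447-142657746, minus strand: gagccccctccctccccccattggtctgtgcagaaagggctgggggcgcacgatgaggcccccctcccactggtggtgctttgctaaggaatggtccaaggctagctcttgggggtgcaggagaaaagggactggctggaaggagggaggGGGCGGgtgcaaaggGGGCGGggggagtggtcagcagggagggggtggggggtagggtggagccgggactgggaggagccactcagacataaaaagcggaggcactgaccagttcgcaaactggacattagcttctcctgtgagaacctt
Igf2, chr7:142658755-142659054, minus strand: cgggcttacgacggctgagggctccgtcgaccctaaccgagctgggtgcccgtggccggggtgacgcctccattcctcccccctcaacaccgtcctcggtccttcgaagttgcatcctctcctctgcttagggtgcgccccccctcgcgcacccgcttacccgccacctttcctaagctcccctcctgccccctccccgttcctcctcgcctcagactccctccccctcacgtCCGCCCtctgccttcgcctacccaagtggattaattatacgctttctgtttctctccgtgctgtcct
Igf1r, chr7:67952007-67952306, plus strand: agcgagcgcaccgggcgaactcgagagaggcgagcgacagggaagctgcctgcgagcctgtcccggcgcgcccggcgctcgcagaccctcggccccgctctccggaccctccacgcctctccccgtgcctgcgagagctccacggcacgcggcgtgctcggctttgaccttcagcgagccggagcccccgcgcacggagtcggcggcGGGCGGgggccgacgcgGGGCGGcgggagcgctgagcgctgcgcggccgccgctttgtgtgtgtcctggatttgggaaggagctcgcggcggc
Igfbp3, chr11:7213874-7214173, minus strand: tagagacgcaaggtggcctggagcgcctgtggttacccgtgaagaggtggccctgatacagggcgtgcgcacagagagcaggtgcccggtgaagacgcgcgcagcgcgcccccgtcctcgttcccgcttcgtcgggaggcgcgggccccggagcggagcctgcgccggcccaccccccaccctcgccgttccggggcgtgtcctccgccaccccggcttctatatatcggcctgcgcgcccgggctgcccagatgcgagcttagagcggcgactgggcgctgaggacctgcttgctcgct
The first Igf2 window held 2 GC boxes, the second held 1, the Igf1r window held 2 and the Igfbp3 window held none. The Igf1r window was the richest in CpG of the 14 windows of the members, with 48 CpG and 76.0% G and C, against medians of 7 CpG and 52.7% over all 32851 windows in the table. The Igfbp3 window held 37 CpG, and the Igf2 windows shown held 7 and 24. Of the 14 windows, 6 held a GC box, against 35.7% of all windows, 8 held the SMAD box CAGAC (49.6% of all windows), 3 held the TCF core CTTTGA (16.0%) and 2 held the TATA box TATAAA (13.6%). Both strands were searched, none of the motifs contains another, and a match describes the letters and not a binding site. The arrays do not resolve which Igf2 start was used.

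The tumors were set against the labels before the members were read. Tgfbr2, the deleted gene, had log2 signals of 10.98, 10.35 and 10.47 in double knockout tumors, against 11.35, 11.37 and 11.09 in Apc knockout tumors. The difference was −0.67 (SE 0.19, limma p = 0.0125, adjusted p = 0.821, exact permutation p = 0.1). Its groups did not overlap, as in 6.94% of all tested probe sets that were lower. Whether its probes lie in exon 2, which Cre removes, was not determined. By immunofluorescence, the study detected no intact Tgfbr2 protein in double knockout tumors. The epithelial adhesion gene Epcam was at 12.65, 12.65 and 12.67 in double knockout tumors and at 12.62, 12.64 and 12.33 in Apc knockout tumors. Krt8 lay above 99.7% of probe sets in every tumor. Both come from a list of 12 colon epithelium markers, of which 3 had lower and 9 higher means in double knockout tumors. Cdx2, one of the lower, differed by −0.45 with all tumors and by 0.49 without double knockout tumor 2. Epcam and Krt8 alone therefore do not describe the epithelium of every tumor. Double knockout tumor 2 stood apart: it correlated with the other arrays at 0.956 to 0.968 over all probe sets, against 0.980 to 0.988 among the other 5. In that tumor 12 smooth muscle markers averaged 10.02, against 8.18 to 8.83 in the other 5 tumors, and 11 crypt stem cell and Wnt target genes averaged 8.84, against 10.66 to 11.10. Its 12 colonocyte differentiation genes averaged 12.08, against 9.35 to 10.28, and the median difference of that list between the groups was 0.30 with this tumor and −0.11 without it. The sex pattern was read from Xist alone. Double knockout tumors 1 and 2 and Apc knockout tumor 3 had the male pattern, with Xist at 5.62, 5.35 and 6.18. The remaining tumors had the female one, with Xist at 12.99 to 13.14. In RNA of dissected tumor tissue, fewer cells of a type and less RNA per cell cannot be told apart.

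Of the 10 members, 9 had a lower mean signal in the double knockout group, and Igfbp6 had a higher one. The ligand Igf2 (−1.32) and the binding protein Igfbp5 (−1.15) differed most in mean log2 signal, and Igfbp6 (0.12) and Igfbp7 (−0.09) least. The median log2 fold change of the 10 members was −0.45, against 0.01 over all tested probe sets, of which 47.7% had a lower signal. No member reached an adjusted p under 0.05 by limma with Benjamini-Hochberg adjustment, and neither did any tested probe set (percent called 0, smallest adjusted p 0.606). The methods' t-test also called 0 members after adjustment. At an unadjusted p under 0.05, 4 of the 10 members were lower (Igf2, Igfbp3, Igf1r and Igfbp5), against 3.82% of all tested probe sets, and 0 were higher, against 1.78%. Igf2 and Igfbp5 were also more than 2-fold lower, as were 0.62% of all tested probe sets at that p. The groups did not overlap in 3 members, all lower, against 6.94% of all tested probe sets, and no member lay wholly above, against 5.25%. These counts of lower members include Igf2, which the study chose on these same tumors, so they are not independent evidence. With 3 tumors against 3, the exact two-sided permutation test cannot give a p below 0.1.

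**Figure D1:**
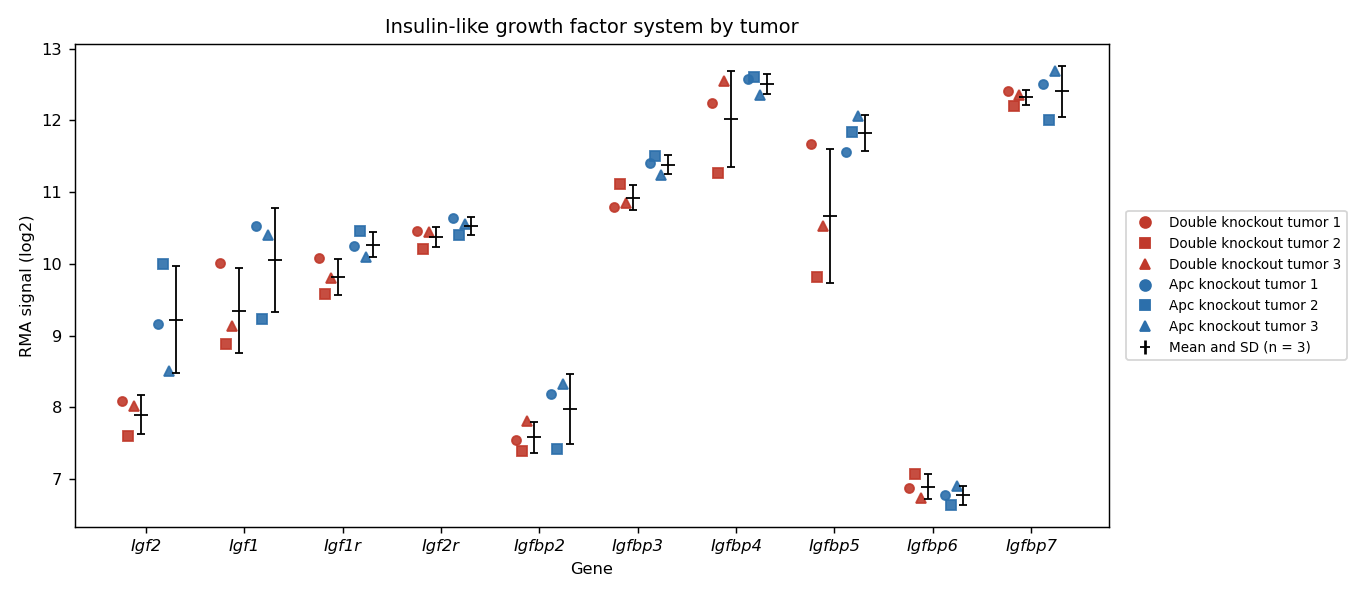
RMA signal (log2) of the 10 IGF system genes in each tumor, with double knockout tumors in red left of Apc knockout tumors in blue; symbols mark the tumor number and bars the mean and SD of 3 tumors. Igf2, Igf1r and Igfbp3 are the genes in which every red symbol lies below every blue one.

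Igf2, the growth factor of fetal life that is expressed from the paternal allele, showed the largest difference in mean signal among the members. Its log2 signal was 8.09, 7.59 and 8.01 in double knockout tumors, against 9.17, 9.99 and 8.51 in Apc knockout tumors. All double knockout tumors lay below all Apc knockout tumors, with a gap of 0.42 between the nearest 2, and the Apc knockout tumors were spread more widely. The means were 7.90 ± 0.27 in double knockout tumors and 9.22 ± 0.74 in Apc knockout tumors (SD, n = 3 each), a difference of −1.32 (SE 0.38, 95% confidence interval −2.24 to −0.41) or 2.50-fold lower (1.33 to 4.72), with a limma p of 0.0121 and an adjusted p of 0.821. The exact permutation p was 0.1, and 247 tested probe sets had a smaller limma p than Igf2. Within its own array, Igf2 lay at the 48.6th to 54.7th percentile of all probe sets in double knockout tumors and at the 60.4th to 80.5th percentile in Apc knockout tumors. Igf2 is one of the genes that the study chose on these same tumors, so its direction here is not independent evidence. Among tumors with the male pattern the difference was −0.67 (2 double knockout tumors against 1 Apc knockout tumor), and among those with the female pattern it was −1.56 (1 against 2).

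The microRNA gene Mir483 lies inside Igf2, at chr7:142654924-142654996 within chr7:142650768-142666816 (GRCm38.p6, minus strand), and has a probe set of its own. Its mature products are shown because they are read from the same locus as the member with the largest difference, with the seed (bases 2 to 8) in capitals.
mmu-miR-483-5p: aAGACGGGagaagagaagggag
mmu-miR-483-3p: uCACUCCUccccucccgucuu
The 2 seeds differ. The Mir483 probe set had log2 signals of 7.90, 8.02 and 7.94 in double knockout tumors, against 8.10, 7.70 and 8.22 in Apc knockout tumors, so the groups overlapped. Its difference was −0.05 (SE 0.16, 95% confidence interval −0.43 to 0.33, limma adjusted p = 0.949), an interval that leaves out a difference of the size seen for Igf2. Whether the array reads the mature microRNA, the hairpin or the host transcript there was not determined.

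Igf1, the ligand made by the liver under growth hormone and locally by connective tissue cells, had log2 signals of 10.01, 8.89 and 9.14 in double knockout tumors, against 10.53, 9.23 and 10.40 in Apc knockout tumors. Double knockout tumors 2 and 3 were below every Apc knockout tumor, and tumor 1 lay among them, so the groups overlapped. The difference was −0.71 (SE 0.44, 95% confidence interval −1.78 to 0.36, limma adjusted p = 0.824; exact permutation p = 0.2). It was −1.12 without Apc knockout tumor 2 and −0.47 without Apc knockout tumor 1. The 12 fibroblast markers were split 6 lower and 6 higher with a median of −0.01 (10 lower and 2 higher with a median of −0.15 without double knockout tumor 2), and their part in the Igf1 values was not tested. Their mean signal was 10.42, 10.36 and 9.64 in double knockout tumors, against 10.37, 9.79 and 10.52 in Apc knockout tumors (log2 of the summed signal 14.02 to 14.68, against 14.19 to 14.93).

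Igf1r, the signaling receptor for both ligands, had log2 signals of 10.09, 9.58 and 9.80 in double knockout tumors, against 10.25, 10.45 and 10.10 in Apc knockout tumors. The groups did not overlap, but the nearest tumors were only 0.01 apart, and after each array was centred on its median the groups did overlap. The means were 9.82 ± 0.25 in double knockout tumors and 10.27 ± 0.18 in Apc knockout tumors (SD, n = 3 each). The difference was −0.44 (SE 0.17, 95% confidence interval −0.85 to −0.04) or 1.36-fold lower (1.03 to 1.80). Its limma p was 0.0365, its adjusted p 0.821, its exact permutation p 0.1 and its p by the methods' t-test 0.0667. With 1 tumor left out the difference ranged from −0.58 to −0.32. The unadjusted limma p was then under 0.05 only without double knockout tumor 1 or Apc knockout tumor 3. Igf2r, the receptor that clears Igf2 and that mouse tissues express from the maternal allele, was at 10.46, 10.21 and 10.44 in double knockout tumors and at 10.64, 10.40 and 10.56 in Apc knockout tumors. These groups overlapped, and the difference was −0.16 (SE 0.12, 95% confidence interval −0.46 to 0.14, limma adjusted p = 0.828). The insulin receptor Insr, which also binds Igf2, differed by −0.03 (SE 0.19, limma adjusted p = 0.985).

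Igfbp3, the main carrier of the ligands in blood, had log2 signals of 10.79, 11.12 and 10.85 in double knockout tumors, against 11.41, 11.50 and 11.24 in Apc knockout tumors. The groups were apart by 0.12 and each was narrow. The means were 10.92 ± 0.17 in double knockout tumors and 11.38 ± 0.13 in Apc knockout tumors (SD, n = 3 each). The difference was −0.46 (SE 0.13, 95% confidence interval −0.78 to −0.14) or 1.38-fold lower (1.10 to 1.72), with a limma p of 0.0127, an adjusted p of 0.821 and an exact permutation p of 0.1. It stayed between −0.56 and −0.40 whichever tumor was left out.

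Igfbp5, a binding protein that also attaches to the extracellular matrix, had log2 signals of 11.67, 9.81 and 10.53 in double knockout tumors, against 11.56, 11.84 and 12.06 in Apc knockout tumors. Double knockout tumor 1 was within the range of the Apc knockout tumors, and the other 2 were below it. The means were 10.67 ± 0.94 in double knockout tumors and 11.82 ± 0.25 in Apc knockout tumors (SD, n = 3 each). The difference was −1.15 (SE 0.46, 95% confidence interval −2.26 to −0.03) or 2.22-fold lower (1.02 to 4.80), with a limma p of 0.0453, an adjusted p of 0.821 and an exact permutation p of 0.2. Without double knockout tumor 2 the difference was −0.72 and its unadjusted limma p was 0.0855, and without double knockout tumor 1 it was −1.65.

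Igfbp4, an inhibitor of ligand action that the protease Pappa cuts, had log2 signals of 12.24, 11.26 and 12.55 in double knockout tumors, against 12.58, 12.60 and 12.35 in Apc knockout tumors. Double knockout tumor 2 was the only tumor below 12, and without it the difference of −0.49 (SE 0.33, limma adjusted p = 0.824) was −0.12. Igfbp2, a binding protein of fetal tissue and of many tumors, was at 7.54, 7.39 and 7.81 in double knockout tumors and at 8.18, 7.41 and 8.33 in Apc knockout tumors. Apc knockout tumor 2 lay among the double knockout tumors, and the difference was −0.39 (SE 0.26, 95% confidence interval −1.03 to 0.25, limma adjusted p = 0.824). It was −0.67 without Apc knockout tumor 2 (adjusted p = 0.763 by limma, with the unadjusted p then under 0.05) and −0.21 without Apc knockout tumor 3. Within the male pattern the Igfbp2 difference was −0.86 and within the female pattern it was 0.02.

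Igfbp6, which prefers Igf2 over Igf1, had log2 signals of 6.87, 7.08 and 6.74 in double knockout tumors, against 6.78, 6.64 and 6.90 in Apc knockout tumors, a difference of 0.12 (SE 0.13, 95% confidence interval −0.20 to 0.44, limma adjusted p = 0.851). Igfbp7, a relative with low affinity for the ligands that is abundant in blood vessels, was at 12.41, 12.20 and 12.35 in double knockout tumors and at 12.51, 12.01 and 12.69 in Apc knockout tumors. Its difference was −0.09 (SE 0.19, 95% confidence interval −0.55 to 0.38, limma adjusted p = 0.930). In both genes the groups overlapped, and the intervals leave out a 2-fold difference in either direction.

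**Figure D2:**
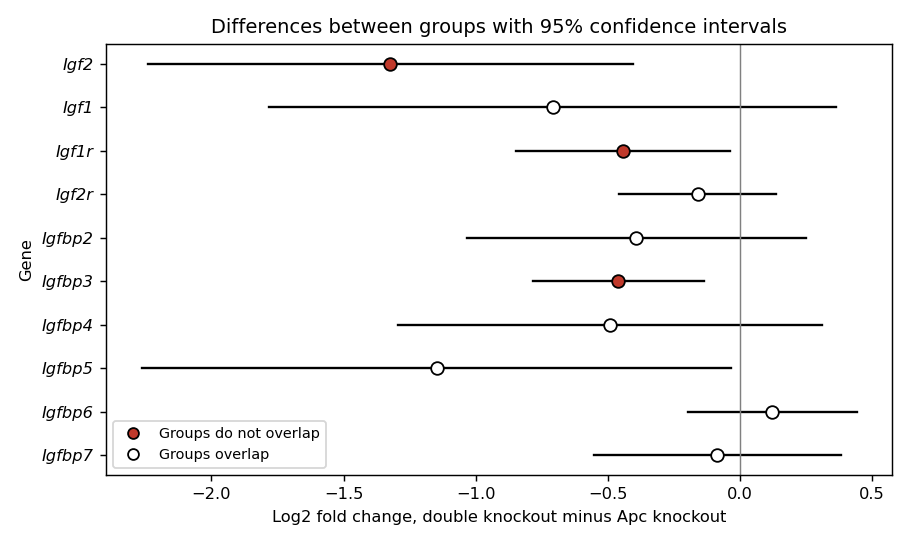
Difference of the mean log2 signal, double knockout minus Apc knockout, for each IGF system gene with its 95% confidence interval from limma (3 tumors each); filled points mark genes whose groups do not overlap. The intervals of Igf2, Igf1r, Igfbp3 and Igfbp5 lie below 0 before adjustment for the number of probe sets.

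Across the tumors, in all 28 pairs among the ligands, the receptors and Igfbp2 to Igfbp5, Pearson r over the 6 arrays was above 0 (0.09 to 0.92). In 11 of the 17 pairs that include Igfbp6 or Igfbp7 it was below 0. Igfbp6 and Igfbp7, set apart here, are the members that differed least between the groups. The other 8 all had lower means in double knockout tumors, a shared difference that raises their r, and joint regulation was not tested. Averaged over the 10 genes, the log2 signal was 10.02, 9.51 and 9.82 in double knockout tumors, against 10.36, 10.21 and 10.31 in Apc knockout tumors, so the group averages were apart in every tumor. Double knockout tumor 2 had the lowest value of the 6 tumors in 7 of the 10 genes and the highest in Igfbp6. Without that tumor, 9 members still had lower means, the median was −0.31, and 2 members rather than 4 were lower at an unadjusted p under 0.05. Apc knockout tumor 2 had the highest Igf2, Igf1r, Igfbp3 and Igfbp4 but the lowest Igfbp6 and Igfbp7. Over the 6 arrays, Igf2 followed Igf1r most closely among the other members (Pearson r = 0.92), and Igfbp4 and Igfbp6 ran opposite to each other (r = −0.90), values that describe 6 points that include the group difference. Among the 10 members, 9 were lower among tumors with the male pattern, and 7 were lower among those with the female pattern, where only 1 double knockout tumor was available.

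**Figure D3:**
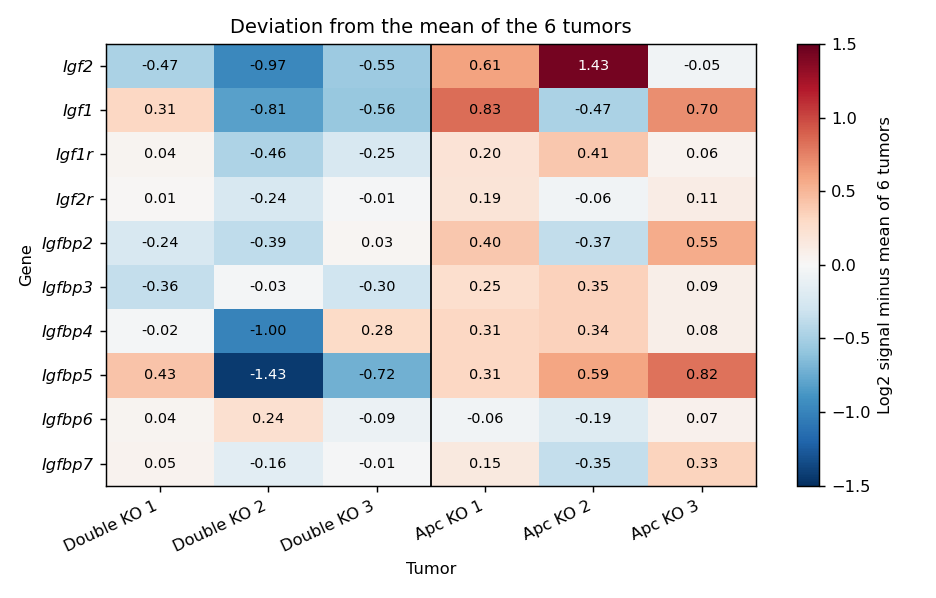
Deviation of each IGF system gene from its mean over the 6 tumors (log2 signal), with double knockout tumors left of the black line and Apc knockout tumors right of it. Double knockout tumor 2 holds the lowest Igfbp5 deviation, −1.43, and Apc knockout tumor 2 the highest Igf2 deviation, 1.43.

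**Figure D4:**
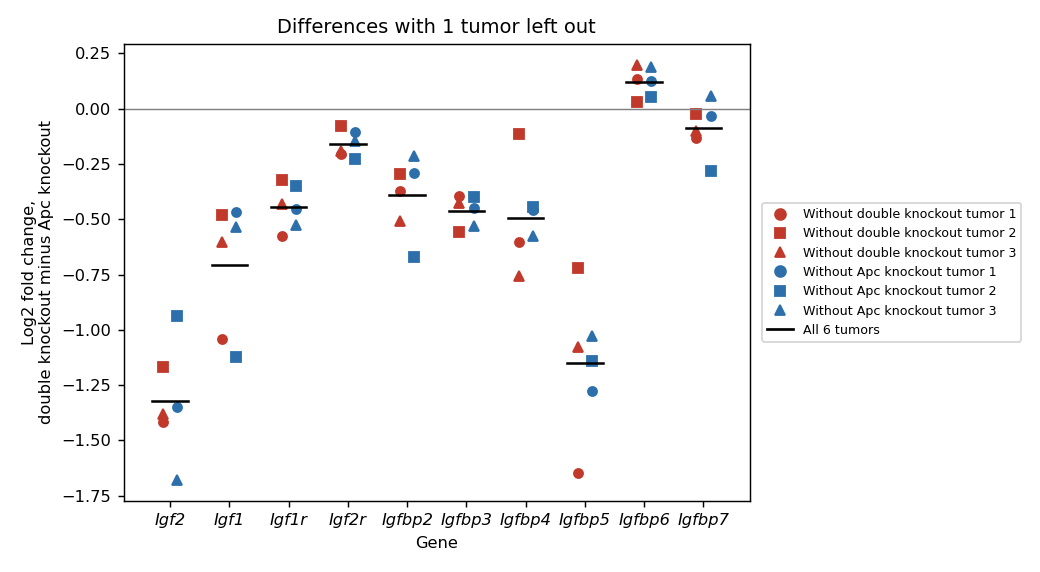
Log2 fold change, double knockout minus Apc knockout, with each tumor left out in turn (symbols) and with all 6 tumors (lines). Igf2 stayed between −1.68 and −0.94, while Igfbp4 was −0.12 without double knockout tumor 2 and Igfbp7 was 0.06 without Apc knockout tumor 3.

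Around the members, 20 further genes of the IGF system were listed and 16 were measured (Ins1, Igf2bp2, Igf2os and H19 were not analysed here). Of these 16, 11 had lower and 5 higher means in double knockout tumors, with a median of −0.23, and after median centring 10 were lower and 6 higher. At an unadjusted p under 0.05, 5 were lower, against 3.82% of all tested probe sets, and 0 higher, against 1.78%. These 5 did not overlap between groups, against 6.94% of all tested probe sets. Both counts of 5 include Plat, which the study chose on these same tumors, and are not independent evidence. Stc1, a stanniocalcin that inhibits Pappa, was at 7.64, 7.56 and 7.84 in double knockout tumors, against 8.43, 8.72 and 8.23 in Apc knockout tumors, a difference of −0.78 (SE 0.16) or 1.72-fold lower. Every double knockout tumor lay below every Apc knockout tumor. Pappa, the protease that frees ligand from Igfbp4 and Igfbp5, was named after its values were seen: it was at 9.73, 9.82 and 8.77 in double knockout tumors and at 10.40, 10.08 and 10.50 in Apc knockout tumors, a difference of −0.88 (SE 0.30) that was −0.55 without double knockout tumor 3. The protease and its inhibitor were both lower in mean signal.

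Plat, tissue plasminogen activator, whose product plasmin can cut binding proteins, was at 10.49, 9.67 and 10.94 in double knockout tumors, against 11.95, 11.44 and 11.62 in Apc knockout tumors, a difference of −1.30 (SE 0.33) or 2.47-fold lower. The study chose Plat on these tumors, so its direction is not independent evidence. Igfbp1, the insulin-regulated binding protein of liver, was at 6.67, 6.70 and 7.24 in double knockout tumors and at 8.24, 7.38 and 7.56 in Apc knockout tumors (−0.85, SE 0.27). The related Igfbpl1 was at 6.85, 6.66 and 6.63 in double knockout tumors and at 7.29, 7.16 and 7.23 in Apc knockout tumors (−0.52, SE 0.11). All 5 genes had a limma adjusted p of 0.821 and an exact permutation p of 0.1. The second stanniocalcin, Stc2, differed by 0.20 with overlapping groups, by −0.11 without Apc knockout tumor 3 and by 0.48 without Apc knockout tumor 2. The binding protein proteases Htra1 (−0.63, SE 0.65) and Adam12 (−0.89, SE 0.71) were lowest in double knockout tumor 2, and without it their differences were −0.06 and −0.10. Without that tumor, the 16 genes had a median of −0.07, with 12 lower and 4 higher means. At an unadjusted p under 0.05 by limma, 5 were then lower and 2 higher, and the same counts held for groups without overlap. The shares of all probe sets were not computed for that setting. Named after its values were seen, Igf2bp1 went from 0.26 with all tumors to 1.19 without that tumor. Igf2bp3 went from −0.22 to 0.58.

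**Figure D5:**
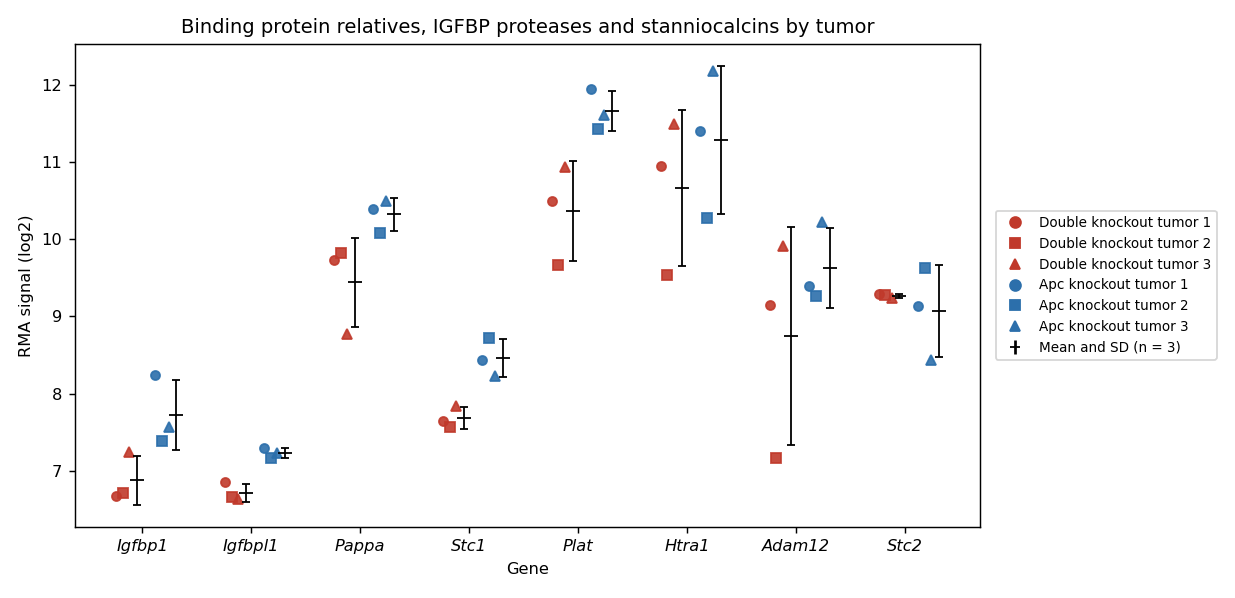
RMA signal (log2) of Igfbp1, Igfbpl1, binding protein proteases and stanniocalcins in each tumor, with double knockout tumors in red left of Apc knockout tumors in blue and bars for the mean and SD of 3 tumors. Igfbp1, Igfbpl1, Pappa, Stc1 and Plat have all red symbols below all blue ones, while Htra1, Adam12 and Stc2 overlap.

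Downstream of the receptor, 27 of 30 listed signaling genes were measured, and their median difference was −0.06, with 17 lower and 10 higher means (16 and 11 after median centring). None passed an unadjusted p under 0.05 by limma, against 3.82% of all tested probe sets lower and 1.78% higher. Of the 27 genes, 1 was without overlap, lower, against 6.94% of all tested probe sets, so the count is not above that background. It was Pik3r2, a regulatory subunit of phosphoinositide 3-kinase, at 9.69, 9.27 and 9.40 in double knockout tumors and at 9.70, 9.73 and 9.86 in Apc knockout tumors (−0.31, SE 0.14). The nearest tumors were 0.01 apart, and after a further quantile normalization no signaling gene was without overlap. The receptor substrate Irs2 differed by −0.36 (SE 0.16), the adaptor Grb10, which restrains the receptor, by −0.51 (SE 0.27), and the regulatory subunit Pik3r3 by −0.43 (SE 0.26), each with overlapping groups and limma adjusted p values of 0.821 to 0.824. Without double knockout tumor 2, Irs2 differed by −0.23 and Grb10 by −0.23, and Pik3r3 differed by −0.20 without Apc knockout tumor 3 and by −0.69 without Apc knockout tumor 2.

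Igf2 belongs to a group of imprinted genes that are expressed together in growing fetal tissue. Of 18 such genes, Igf2 and Igf2r included, 16 were measured, 12 lower and 4 higher in mean signal, with a median of −0.47 that was −0.21 without double knockout tumor 2. At an unadjusted p under 0.05, 4 were lower, against 3.82% of all tested probe sets, and 0 higher, against 1.78%. Nnat, a small membrane protein, was at 7.76, 7.36 and 8.32 in double knockout tumors, against 9.70, 9.01 and 9.36 in Apc knockout tumors, a difference of −1.55 (SE 0.29). Cdkn1c, an inhibitor of cyclin-dependent kinases, was at 8.98, 8.65 and 9.36 in double knockout tumors, against 10.38, 9.53 and 10.47 in Apc knockout tumors, a difference of −1.13 (SE 0.31). The amino acid transporter Slc38a4 differed by −2.11 (SE 0.82), and by −1.12 without double knockout tumor 2, where its signal was 6.49. These 3 genes and Igf2 had limma adjusted p values of 0.821 and no overlap between groups, against 6.94% of all tested probe sets. No gene of the list lay wholly above, against 5.25%. Nnat and Cdkn1c, like Igf2, are on the list of genes that the study drew from these tumors. Both counts of 4 rest in part on these genes and are not independent evidence.

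Other cell types were read from marker lists beside the members. Endothelial markers had a median difference of 0.02 over 12 genes and macrophage markers one of −0.10 over 12 genes. Neutrophil markers were lower in mean signal in all 12 genes (median −0.92), with 4 at an unadjusted p under 0.05 by limma, against 3.82% of all tested probe sets. After median centring or a further quantile normalization 11 were lower and 3 passed that p, and without double knockout tumor 2, 10 were lower. Their mean signal was 7.47, 8.32 and 8.15 in double knockout tumors, against 9.28, 9.26 and 8.49 in Apc knockout tumors, without overlap, while the log2 of the summed signal overlapped (11.78 to 12.74, against 12.66 to 13.35). The colon epithelium markers averaged 12.17, 12.31 and 11.92 in double knockout tumors, against 12.13, 11.97 and 11.68 in Apc knockout tumors. Smooth muscle markers had a median of 0.40, which was −0.20 without double knockout tumor 2, and crypt stem cell and Wnt target genes one of −1.04, which was −0.41 without it. The part of these cell types in the values of the members was not tested.

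The genes whose signal was most like that of Igf2 over the 6 arrays were Glmn (Pearson r = 0.993), Dpep2 (0.990), Ptprj (0.989), Ddit4l (0.987) and Impg2 (0.985). For Igf1r they were 5730455P16Rik, Cacna2d1, Il17ra, Ptprj and Irs2 (0.993 to 0.989). For Igfbp3 they were Ppp2cb (0.993), Ephx4, Jdp2, Rab11fip5 and the neutrophil-expressed Retnlg (0.977). These values rank probe sets over 6 arrays that include the group difference and carry no test.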

How the data were processed

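RNA of laser-dissected colon tumors was hybridised to Affymetrix Mouse Gene 1.0 ST arrays, and the deposited values are log2 signals that the authors made by RMA (background correction, quantile normalization and probe set summary), on which the precision is limited by the 6 arrays. Scanner files were not used here, so the background correction was not varied, and the annotation build was not given in the sources used here. Groups came from the sample labels. Of 35556 probe sets, 21789 carried 1 symbol, 1621 several and 12146 none. Sets with a symbol whose mean reached the 20th percentile of all sets were fitted with limma 3.58.1 (R 4.3.3) for the double knockout against the Apc knockout, with Benjamini-Hochberg adjustment over all of them and a threshold of 0.05. The fit was tested on simulated data. Exact two-sided permutation tests over tumors stand beside single values.

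The members and gene lists were chosen with earlier results of these data known. Named were all members, the 4 genes of the smallest limma p in each list outside them, genes whose role was needed (chosen after their values were seen) and the 5 most correlated genes for Igf2 and for the next 2 members by p. Sequences came from RefSeq tables (GRCm38.p6), which held windows for all 10 members. The alternatives were the methods' t-test, other filters, median centring, a further quantile normalization, a trended robust fit, a replicate block and leaving out each tumor. The sex pattern as a covariate was added after the data were seen.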

Additional observations from a re-analysis of the deposited data

How the results depend on the processing

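No member and no tested probe set passed the adjusted threshold under any alternative that was run. The count of members lower at an unadjusted p, 4 with all tumors, was 2 by the methods' t-test, 2 with the sex pattern as a covariate (an alternative chosen after seeing the data) and 2 to 4 when 1 tumor was left out, with 2 without double knockout tumor 2, double knockout tumor 3 or Apc knockout tumor 1. The count without overlap was 3, but 2 after median centring. It was 3 to 7 when 1 tumor was left out, 7 without Apc knockout tumor 2. Leaving out a tumor cannot create an overlap, so that count could only stay or rise and is no check. The share of all probe sets without overlap was not computed for these settings. With 1 tumor left out, 8 or 9 members had lower means. The Igfbp7 log2 fold change ranged from −0.28 to 0.06 with 1 tumor left out, and was 0.0591 without Apc knockout tumor 3, against −0.09 with all tumors. The titles number the tumors 1 to 3 in both groups. Deviations of same-numbered tumors from their group means correlated at −0.20, −0.06 and 0.09. In each same-numbered pair the sex patterns were opposite. With 3 tumors in each group, these values cannot decide whether the number stands for anything shared. With the replicate block, 3 members were lower at an unadjusted p: Igf2 and Igfbp3 were on both lists, Igf1 came in, and Igf1r and Igfbp5 dropped out. Igf2 was −1.32 (limma adjusted p = 0.646), and its adjusted p ran from 0.564 without double knockout tumor 3 to 0.945 without Apc knockout tumor 1 over the alternatives run. Averaging the probe sets of a gene changed nothing, since each member has 1. Igfbp6 lay below the 40th percentile filter. The number of tumors limits the precision. The causes of these shifts were not tested.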
